A study of Mus musculus with 12 samples.

Results

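The genes described here are 10 mouse genes of fibroblast growth factor (FGF) and ERK signalling. Those of its negative feedback are the Sprouty genes Spry1, Spry2 and Spry4, the Spred genes Spred1 and Spred2, and the ERK phosphatase genes Dusp4 and Dusp6. With them are the transcription factor genes Etv4 and Etv5 and the receptor gene Fgfr4. They were found as every array probe whose accession belonged to one of them, which gave 12 of the 39429 probes: 1 probe for each of 8 genes and 2 probes each for Etv4 and Fgfr4. All 12 probes passed the filter on dim signal, and 10 of them were well above background on all 12 arrays, the exceptions being those of Spry4 and Spry2. All 10 genes were among the 24543 genes tested.

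C2C12, an established line of mouse myoblasts able to fuse into myotubes, was transfected and its RNA hybridised at 72 h to 12 Agilent one-colour arrays, 3 for each of 4 groups. The labels name what was transfected: a negative control, the plasmid pcDNA3.1, the plasmid pcDNA3.1-MEG3, or siRNA. The titles describe the last pair as overexpression and knockdown of MEG3, a long non-coding RNA. All groups were the same cell line in the same medium. The labels give neither the make-up of the negative control nor the siRNA sequence, and that the pcDNA3.1 plasmid was empty is not stated in that field. They do not say whether replicates were separate cultures, so p-values reflect the spread of these samples alone, and that spread may be technical. In bulk RNA, fewer cells of a type and less RNA per cell cannot be told apart.

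Binding of an FGF to its receptor activates Ras and the RAF, MEK and ERK kinases, and ERK activity induces genes that damp the same route. Sprouty and Spred proteins restrain Ras and RAF activation, Dusp4 and Dusp6 encode phosphatases that remove phosphate from MAP kinases, Dusp6 in the cytoplasm with a preference for ERK and Dusp4 in the nucleus, and Etv4 and Etv5 encode ETS factors that are widely used as readouts of FGF signalling. In the muscle lineage FGF signalling favours myoblast proliferation over differentiation, Fgfr4 is a receptor of myogenic cells, and Spry1 is known for the return of muscle stem cells to quiescence.

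The proximal promoters of Spry1, Spred1 and Dusp6 are shown because these were the members called higher on the siRNA arrays in one of the comparisons below. Each is the 250 bases before the annotated start on the plus strand of GRCm38.p6, as given by RefSeq: chr3:37639697-37639946 for Spry1, chr2:117120821-117121070 for Spred1 and chr10:99262981-99263230 for Dusp6. Capitals mark GGAA, the core of ETS binding motifs, or its reverse complement TTCC.
Spry1: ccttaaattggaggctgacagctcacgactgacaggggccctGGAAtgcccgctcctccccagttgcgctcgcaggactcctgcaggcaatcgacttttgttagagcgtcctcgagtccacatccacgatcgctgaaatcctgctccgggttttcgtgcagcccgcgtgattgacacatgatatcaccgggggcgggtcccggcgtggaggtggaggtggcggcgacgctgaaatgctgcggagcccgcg
Spred1: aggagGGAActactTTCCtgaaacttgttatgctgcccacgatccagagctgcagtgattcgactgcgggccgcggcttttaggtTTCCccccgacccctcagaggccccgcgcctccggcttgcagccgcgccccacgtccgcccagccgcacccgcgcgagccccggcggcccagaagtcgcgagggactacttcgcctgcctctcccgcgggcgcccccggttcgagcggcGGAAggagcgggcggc
Dusp6: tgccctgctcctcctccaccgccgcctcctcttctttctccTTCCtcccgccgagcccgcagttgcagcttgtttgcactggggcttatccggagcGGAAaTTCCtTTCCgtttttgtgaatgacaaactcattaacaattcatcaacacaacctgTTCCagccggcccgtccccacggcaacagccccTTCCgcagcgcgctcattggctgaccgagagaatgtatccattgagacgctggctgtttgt
GGAA occurred 1 time in the Spry1 window, 4 times in that of Spred1 and 6 times in that of Dusp6, counting both strands. Of 32851 RefSeq promoter windows of this length, 93.4% held at least 1 GGAA, 33.4% at least 4 and 8.69% at least 6. The longer ETS motif CCGGAAGT, which contains GGAA, the AP-1 motif TGANTCA and the CRE motif TGACGTCA were searched on both strands and had no match in these windows, against 2.88%, 6.75% and 1.55% of all windows. GC content was 62.4%, 70.8% and 56.4% for Spry1, Spred1 and Dusp6, beside a median of 52.4% over all windows, and the windows held 23, 31 and 16 CpG dinucleotides against a median of 6. GGAA was counted in the RefSeq windows of 7 members (8 windows), with any member window on 1 chromosome left out. These counts ran from 0 in one Etv5 window to 7 in that of Spred2. These matches describe the letters only.

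Meg3, the targeted RNA, contradicted the plasmid labels. Its brightest probe exceeded background on all 3 arrays labelled pcDNA3.1 and on none of the 3 labelled pcDNA3.1-MEG3, where it was at least 20.0-fold dimmer, so directions between these groups hold for the labels only. On the negative control it exceeded background on 1 of 3 arrays and on siRNA on 0 of 3, which leaves the knockdown unchecked. Replicates 1 and 3 of the pcDNA3.1, pcDNA3.1-MEG3 and siRNA groups shared a slide position and differed by 0.263, 0.36 and 0.258 times the noise between spots, and replicates 1 and 3 of the negative control by 0.798 times, so each such pair was counted as 1 sample, giving 2 samples per group. Replicates 1 and 2 of the plasmid groups also differed by slightly less than spot noise (0.98 and 0.929 times) but were kept apart, and the results with each plasmid group as 1 sample are given beside the counts. Negative control replicate 2 stood apart, at 4.03 and 3.66 times spot noise from replicates 1 and 3. The share of probes well above background ran from 62% to 75.9% of an array and was lowest on siRNA replicates 1 and 3, and the 75th percentile signal from 1168 to 2266. First scans fell into 3 sessions, of the negative control, of both plasmids and of siRNA, so for every comparison except that of the 2 plasmid groups slide and group cannot be told apart. Of 8 myoblast markers, 8 were well above background on all negative control arrays and 7 on those of each other group, Myf5 being the missing one in both plasmid groups and Pax7 in the siRNA group, and among 5 epithelial markers this held for Krt14 alone. Myoblast markers moved with the groups: 3 of 8 were called higher and 1 lower for siRNA against the negative control, 0 higher and 2 lower for the plasmids against it, and 4 higher and 0 lower for siRNA against the plasmids. Their summed log2 level was 5.39 to 5.68 on the negative control arrays, 4.62 to 5.47 and 5.32 to 5.33 on those labelled pcDNA3.1 and pcDNA3.1-MEG3, and 5.98 to 6.03 on the siRNA arrays. Their part in the results below was not tested.

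Signals are given on the log2 scale relative to the 75th percentile of the same array, so that 0 is a probe at that percentile; levels of different genes are not comparable. Differences were tested with limma and adjusted by Benjamini-Hochberg over all genes tested, and a gene is said to have risen or fallen when its adjusted p was under 0.05. Where 1 of the 2 samples of a group was left out, the remaining one was assumed to vary like the other groups.

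**Figure D1:**
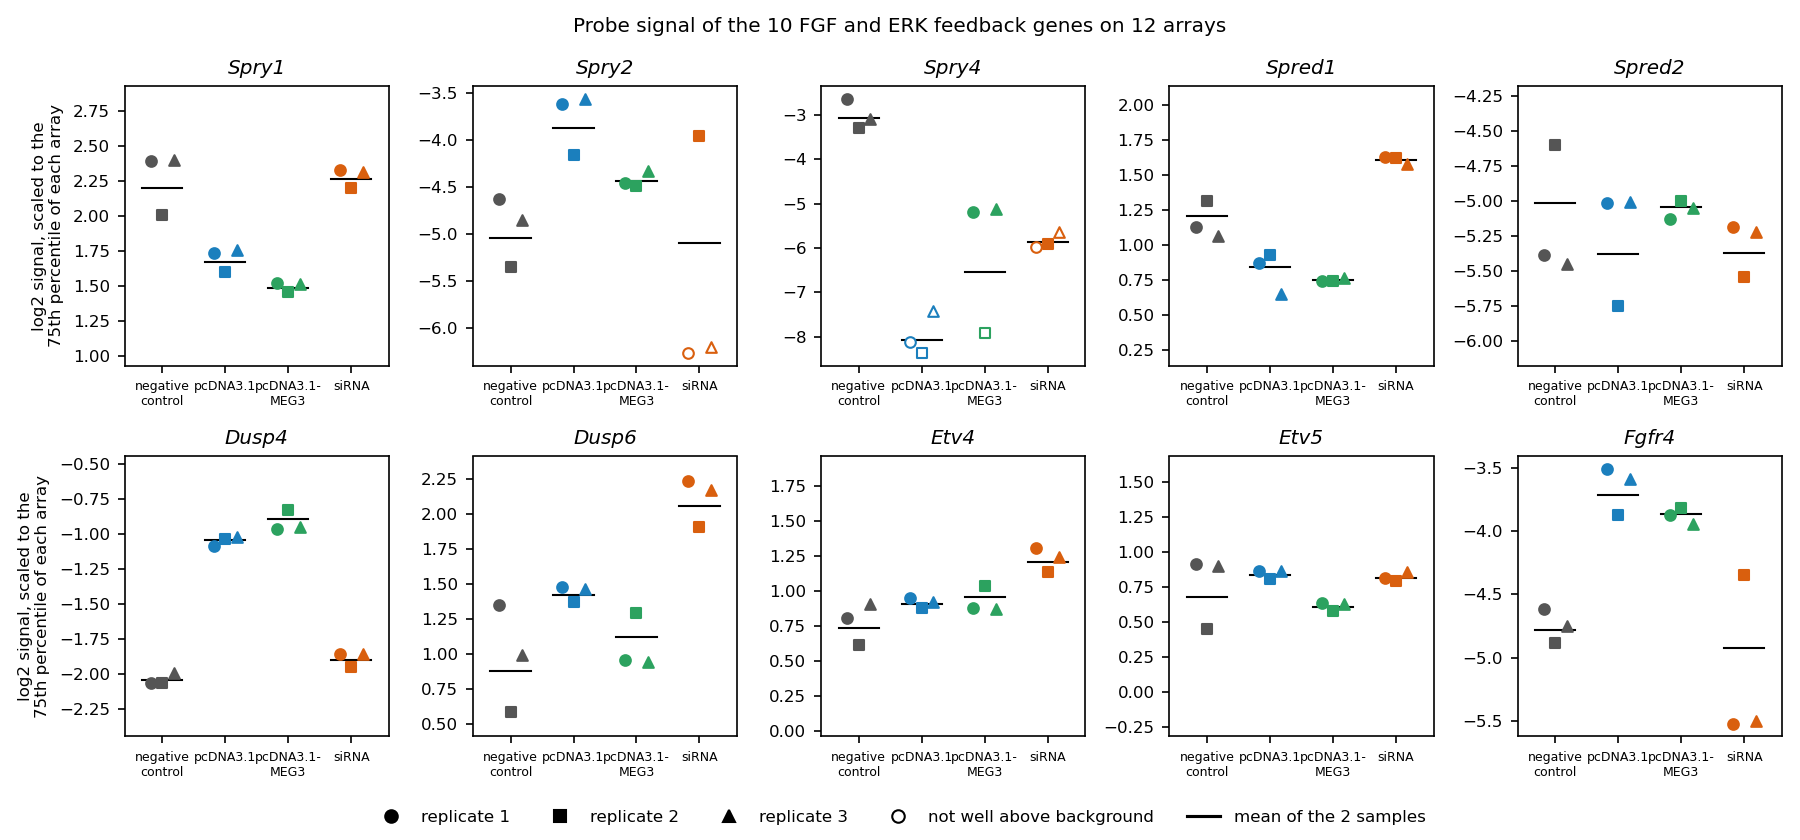
Log2 probe signal relative to the 75th percentile of each array (vertical axes, different ranges) for the 10 genes in the 4 groups; symbols are single arrays, open where the probe was not well above background, and bars are means of the 2 samples of a group. Dusp4 was higher on all 6 plasmid arrays than on the other 6, and Spry4 was highest on the 3 negative control arrays.

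Among the Sprouty genes, whose products restrain Ras and RAF activation, Spry1 was lowest in the plasmid groups. Spry1 read 2.40, 2.01 and 2.40 on the negative control arrays, 1.74, 1.60 and 1.76 on those labelled pcDNA3.1, 1.52, 1.46 and 1.52 on those labelled pcDNA3.1-MEG3, and 2.33, 2.20 and 2.31 on the siRNA arrays. All 6 plasmid arrays lay below all 6 others, while the negative control and siRNA ranges overlapped. Spry1 was 0.62 lower in the plasmid groups than in the negative control on the log2 scale (log2 difference -0.62, SE 0.15, 1.54-fold, limma adjusted p = 0.0371) and 0.68 higher on the siRNA arrays than in the plasmid groups (SE 0.15, 1.60-fold, adjusted p = 0.0312). The calls were lost under 6 and 8 of 18 alternatives. Both were lost when any 1 sample of a plasmid group was left out (adjusted p 0.0931 to 0.125 and 0.0837 to 0.116), and the second also without either siRNA sample (0.0649 without replicate 2, 0.111 without replicates 1 and 3). Between siRNA and negative control it differed by 0.06 (95% interval -0.37 to 0.49, adjusted p = 0.871).

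Spry4 showed the largest difference of the 10 genes, and its size is only bounded. It read -2.64, -3.30 and -3.09 on the negative control arrays and was well above background on all 3. It read -8.12, -8.37 and -7.43 on the arrays labelled pcDNA3.1, on none of which it was well above background, and -5.20, -7.92 and -5.12 on those labelled pcDNA3.1-MEG3, where replicates 1 and 3 were above background and replicate 2 was not. The siRNA arrays read -5.98, -5.90 and -5.65, with replicate 2 above background. The negative control arrays lay above all 9 others. Against the lowest signal well above background on each dim array, the negative control was at least 11.7-fold higher than the pcDNA3.1 group, at least 7.47-fold higher than the pcDNA3.1-MEG3 group and at least 6.83-fold higher than the siRNA group. Spry4 fell in the plasmid groups against the negative control (limma adjusted p = 0.0144), a call lost under 1 of 17 alternatives. The siRNA difference did not pass (adjusted p = 0.0877) and did under 2 of 15 alternatives. Spry4 passed the filter on dim signal only through the negative control, the group where it was bright. Its call is therefore not independent of that filter and adds no support beyond the array values. Between siRNA and the plasmid groups it passed only without pcDNA3.1-MEG3 replicates 1 and 3 (adjusted p = 0.194 with them, 0.018 without), and no size is given because most of these arrays were not above background.

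Spry2, a close relative of Spry1, passed in no comparison of the 8-sample fit. It read -4.63, -5.35 and -4.85 in the negative control, -3.62, -4.17 and -3.56 in the pcDNA3.1 group and -4.46, -4.49 and -4.33 in the pcDNA3.1-MEG3 group. On the siRNA arrays it read -6.27, -3.96 and -6.21, with only replicate 2 well above background. Replicate 2 of siRNA was as high as the plasmid arrays and the other 2 siRNA arrays were the lowest of the 12. The plasmid minus negative control difference of Spry2 was 0.89 (SE 0.62, limma adjusted p = 0.332) and passed in a fit of only those groups (adjusted p = 0.0399). With the dim siRNA arrays at their bound, the pcDNA3.1 group was at least 2.11-fold and the pcDNA3.1-MEG3 group at least 1.43-fold higher than the siRNA group, and the comparison of siRNA with the plasmid groups did not pass (adjusted p = 0.298). It passed with 12 arrays as 12 samples (adjusted p = 0.0279) and without siRNA replicate 2 (adjusted p = 0.0082), where both remaining siRNA arrays were not well above background, so no size is given.

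Of the Spred genes, which act on Ras through neurofibromin, Spred1 was highest on the siRNA arrays. Spred1 read 1.62, 1.62 and 1.58 there, 1.13, 1.32 and 1.07 in the negative control, 0.87, 0.93 and 0.65 in the pcDNA3.1 group and 0.74, 0.74 and 0.76 in the pcDNA3.1-MEG3 group. The siRNA arrays lay above all others and the plasmid arrays below all others. Spred1 rose 1.76-fold on the siRNA arrays against the plasmid groups (log2 difference 0.82, SE 0.13, limma adjusted p = 0.0103), a call lost under 3 of 18 alternatives, among them those without either sample labelled pcDNA3.1-MEG3 (adjusted p = 0.0543 without replicates 1 and 3, 0.0565 without replicate 2). Its differences from the negative control, 0.40 for siRNA (95% interval 0.05 to 0.76, adjusted p = 0.132) and -0.41 for the plasmid groups (-0.72 to -0.10, adjusted p = 0.0657), did not pass. The first passed under 2 of 16 alternatives, with 12 arrays as 12 samples (adjusted p = 0.00463) and without negative control replicate 2 (0.51, adjusted p = 0.0282). The second passed under 4 of 18: with median centring (-0.83, adjusted p = 0.0153), with 12 arrays as 12 samples (-0.39, adjusted p = 0.00304), with only probes well above background on all arrays (-0.41, adjusted p = 0.0443) and without negative control replicates 1 and 3 (-0.52, adjusted p = 0.0205). The last leaves replicate 2, the array that stood apart, as the only negative control sample. Spred2 lay between -5.75 and -4.60 on all 12 arrays with overlapping groups except pcDNA3.1-MEG3 and siRNA, and passed in no comparison.

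Of the phosphatase genes, Dusp4 separated the plasmid groups from the others with the smallest spread. Dusp4 read -2.07, -2.06 and -1.99 in the negative control, -1.08, -1.03 and -1.02 in the pcDNA3.1 group, -0.96, -0.83 and -0.95 in the pcDNA3.1-MEG3 group and -1.86, -1.95 and -1.86 in the siRNA group. Every plasmid array exceeded every other array. Dusp4 rose 2.11-fold in the plasmid groups against the negative control (log2 difference 1.08, SE 0.11, limma adjusted p = 0.00342) and was 1.91-fold lower on the siRNA arrays than in the plasmid groups (-0.94, SE 0.11, adjusted p = 0.00467). It passed with any 1 sample left out, and did not pass with each plasmid group taken as 1 sample (adjusted p = 0.141 and 0.179). Between siRNA and negative control it differed by 0.14 (95% interval -0.18 to 0.46, adjusted p = 0.54).

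Dusp6, the phosphatase most used as a readout of ERK activity, took another order. Dusp6 read 1.35, 0.58 and 1.00 in the negative control, 1.48, 1.38 and 1.47 in the pcDNA3.1 group, 0.96, 1.30 and 0.94 in the pcDNA3.1-MEG3 group and 2.24, 1.91 and 2.17 in the siRNA group. The siRNA arrays lay above all others, and the negative control and pcDNA3.1-MEG3 ranges overlapped. Dusp6 rose 2.26-fold on the siRNA arrays against the negative control (log2 difference 1.18, SE 0.25, limma adjusted p = 0.0363). Over the alternatives its adjusted p lay between 0.000882 and 0.21, and the call was lost under 6 of 16, among them leaving out siRNA replicates 1 and 3 (0.0996) and the fit of those 2 groups alone (0.21). Against the plasmid groups the siRNA difference was 0.78 (SE 0.22, adjusted p = 0.0562), and under 6 of 18 alternatives it passed.

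The transcription factor genes passed in no comparison of the 8-sample fit. Etv4 is a PEA3-family ETS factor, and its brighter probe, A_55_P2078780, read 0.81, 0.62 and 0.91 in the negative control, 0.95, 0.88 and 0.92 in the pcDNA3.1 group, 0.88, 1.04 and 0.87 in the pcDNA3.1-MEG3 group and 1.31, 1.14 and 1.25 in the siRNA group. The siRNA arrays were the 3 highest, by 0.47 over the negative control (95% interval 0.10 to 0.85, adjusted p = 0.104), which did not pass. It passed with 12 arrays as 12 samples (adjusted p = 0.00359) and without negative control replicates 1 and 3 (0.59, adjusted p = 0.0281), where replicate 2 was the only negative control sample. The siRNA minus plasmid difference of Etv4 passed under 2 of 18 alternatives, 12 arrays as 12 samples (adjusted p = 0.0099) and median centring (adjusted p = 0.0445). Its second probe, A_55_P1959521, read -2.97, -1.62 and -2.96 in the negative control, -2.84, -2.69 and -2.76 in the pcDNA3.1 group, -1.98, -1.83 and -1.97 in the pcDNA3.1-MEG3 group and -1.93, -2.09 and -1.97 in the siRNA group. Here the pcDNA3.1-MEG3 arrays lay above all pcDNA3.1 arrays, by 0.85 (SE 0.42, adjusted p = 0.496 over 29550 probes), and negative control replicate 2 lay far above replicates 1 and 3. Etv5, of the same family, stayed between 0.45 and 0.91 on all 12 arrays. The siRNA minus negative control difference of Etv5 was 0.14 (95% interval -0.31 to 0.58), and it passed under 1 of 16 alternatives, with replicate 2 as the only negative control sample (0.36, adjusted p = 0.0347), while without replicate 2 it was -0.09 (adjusted p = 0.465).

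The 2 probes of the receptor gene Fgfr4 ordered the groups differently. Probe A_55_P2121871, the brighter one, which stood for the gene in the fit, read -4.62, -4.89 and -4.75 in the negative control, -3.51, -3.88 and -3.59 in the pcDNA3.1 group, -3.87, -3.82 and -3.94 in the pcDNA3.1-MEG3 group and -5.52, -4.34 and -5.50 in the siRNA group. Probe A_55_P2120055 read -4.40, -4.96 and -4.08 in the negative control, -5.13, -4.86 and -5.04 in the pcDNA3.1 group, -5.56, -5.48 and -5.61 in the pcDNA3.1-MEG3 group and -3.72, -3.75 and -3.65 in the siRNA group. On the first probe the plasmid arrays were the 6 highest, whereas on the second the siRNA arrays were the 3 highest and the pcDNA3.1-MEG3 arrays the 3 lowest. The siRNA minus plasmid difference was -1.14 on the first probe (SE 0.33, limma adjusted p = 0.0622) and 1.54 on the second (SE 0.22, 2.90-fold, adjusted p = 0.00812 in a fit of all 29550 probes). The plasmid minus negative control differences were 1.00 (adjusted p = 0.08) and -0.65 (adjusted p = 0.0846), and the first passed under 2 of 18 alternatives. Without siRNA replicate 2, the siRNA minus plasmid difference of the first probe was -1.72 (adjusted p = 0.00366), and with the mean of both probes it was 0.20 (adjusted p = 0.503). No direction is therefore given for Fgfr4 as a gene.

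**Figure D2:**
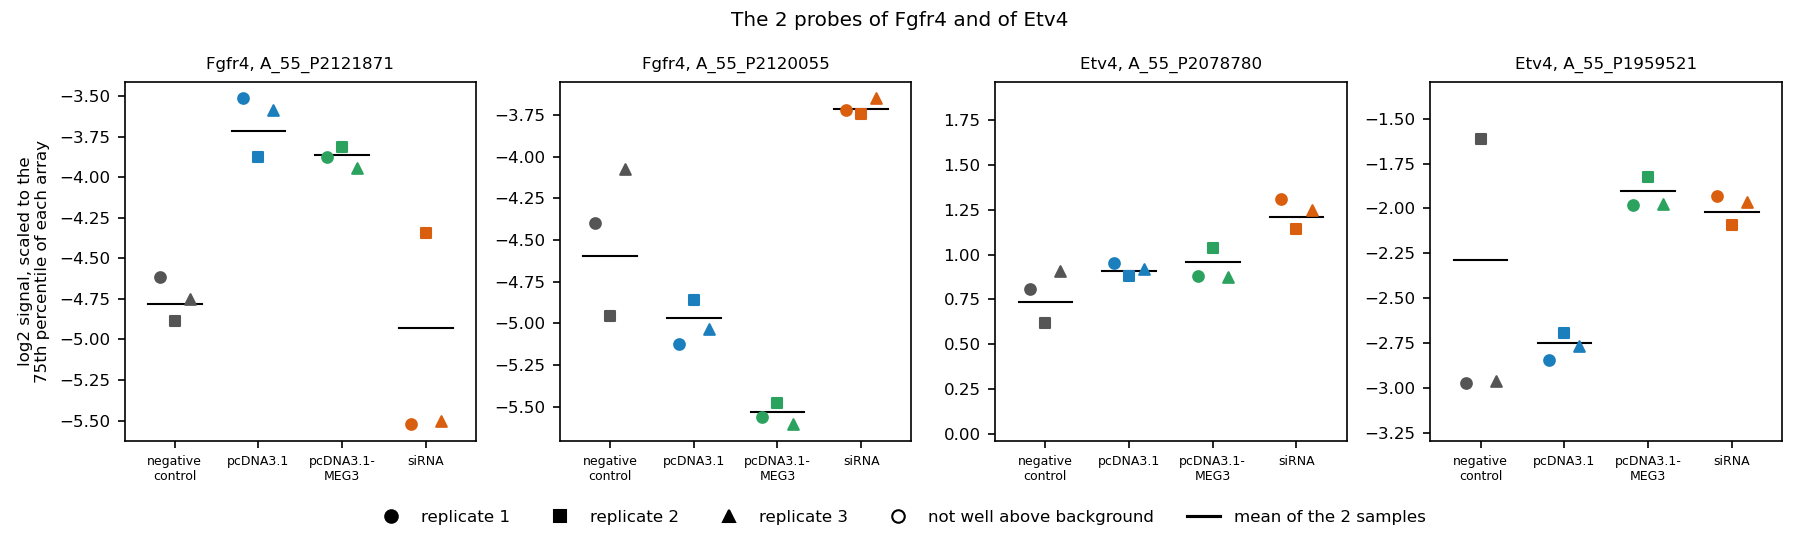
Log2 signal relative to the 75th percentile of each array for the 2 probes of Fgfr4 and the 2 probes of Etv4, by group; symbols are single arrays and bars the means of the 2 samples. On A_55_P2120055 the siRNA arrays lie between -3.75 and -3.65, above all others, while on A_55_P2121871 they lie between -5.52 and -4.34.

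The study's knockdown comparison asks which RNAs differed between the siRNA and negative control arrays. There 1 of the 10 members was called, Dusp6, higher, against 12.4% of all genes tested (7.75% higher and 4.66% lower). The median log2 difference of the members was 0.10 and that of all genes 0.06. Of all calls 62.5% were higher, and 41% when arrays were centred on their medians in place of the 75th percentile, which moved the median of all genes from 0.06 to -0.13. With 12 arrays as 12 samples 4 members were called, beside 40.1% of all genes, and with only the arrays of these 2 groups 0 were, beside 0.636% of all genes. Median centring called 0 members and 10.9% of all genes.

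The overexpression comparison set the pcDNA3.1-MEG3 label against the pcDNA3.1 label. It called 0 of the 10 members by limma, with 0.00815% of all genes called (2 genes). Of the members 0 had an unadjusted p under 0.05, against 2496 of all 24543 genes, and 0 were called with 12 arrays as 12 samples, beside 12.2% of all genes. Both of the genes called were lower, beside 55.6% higher of 9 calls after quantile normalisation. The member differences ran from -0.56 for Spry2 to 1.53 for Spry4, with a median of -0.12 beside -0.16 for all genes. Both groups lay on 1 slide: Spry4 differed by 1.69 in its first scan (2 arrays per group) and 2.31 in its second (1 array per group), the second Etv4 probe by 0.87 and 0.79, and Spred1 by -0.16 and 0.12. The pcDNA3.1 group of Spry4 was not above background on any array, so its values give no size.

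Both plasmid groups against the negative control gave 3 of the 10 members called: Dusp4 higher, Spry1 and Spry4 lower. Of these, Spry4 passed the filter on dim signal only through the negative control. Of all genes 21.8% were called, 13.3% higher and 8.56% lower. The members' median was 0.12 and that of all genes 0.18. Of all calls 60.8% were higher, 46% after quantile normalisation and 18.2% after median centring, under which the median of all genes was -0.23. Dusp4, Spry1 and Spry4 kept their direction under every alternative run. The siRNA minus plasmid comparison also called 3 members: Spry1 and Spred1 higher and Dusp4 lower. Here 18.8% of all genes were called, 10.6% higher and 8.16% lower, and the medians were 0.19 for the members and -0.11 for all genes. Of all calls 56.5% were higher, 68.6% after quantile normalisation and 78.4% after median centring, under which the median of all genes was 0.12. With each plasmid group as 1 sample the first comparison called 1 member, beside 0.546% of all genes, and the second 0, beside 0.754%. Median centring called 4 members in the first, beside 28% of all genes, and 5 in the second, beside 23.1%. These comparisons share their plasmid arrays, and the first shares its negative control arrays with the knockdown comparison, so they are not independent.

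**Figure D3:**
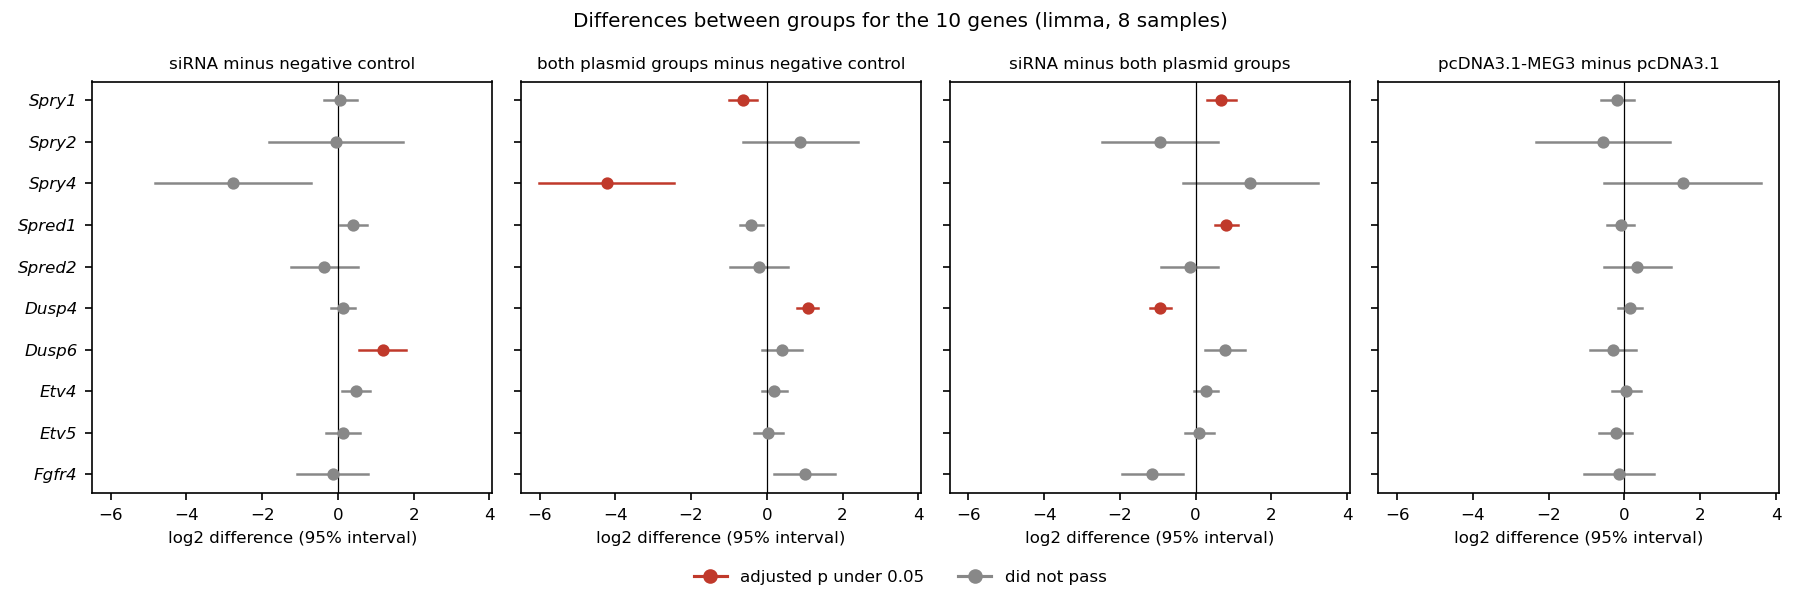
Log2 differences (points) with 95% intervals (lines) from the limma fit of 8 samples for the 10 genes in the 4 comparisons; red marks adjusted p under 0.05. Dusp6 is the call for siRNA minus negative control, Dusp4 lies at 1.08 and -0.94 in the comparisons with the plasmid groups, and Spry4 has its widest departure from 0 for plasmid minus negative control, where the size rests on arrays not above background. The siRNA differences of Spry2 are likewise drawn as fitted.

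Other feedback genes and relatives of the members were counted from a list of 15, all tested. Of all genes, 12.4% were called in the knockdown comparison and 21.8% in the plasmid groups against the negative control. The share was 18.8% for siRNA against the plasmid groups. In the knockdown comparison 4 were called higher and 0 lower. Among them Dusp14, a MAP kinase phosphatase, rose 2.18-fold (log2 difference 1.13, SE 0.20, limma adjusted p = 0.0226) and Etv1, the third PEA3-family factor, 1.57-fold (0.65, SE 0.13, adjusted p = 0.0325). Dusp16, a phosphatase of JNK and p38, rose 1.62-fold (adjusted p = 0.0372), while its other probe differed by -0.56 (adjusted p = 0.28). In the plasmid groups against the negative control 4 were higher and 2 lower. Etv1 rose 1.76-fold there (adjusted p = 0.00802) and Dusp7, a cytoplasmic ERK phosphatase like Dusp6, fell 1.66-fold (log2 difference -0.73, adjusted p = 0.0141). Dusp9, of the same subfamily, was well above background on all plasmid arrays and 1 of 3 negative control arrays, at least 1.55-fold and 2.54-fold higher in the pcDNA3.1 and pcDNA3.1-MEG3 groups (adjusted p = 0.0108). On the siRNA arrays against the plasmid groups 1 was higher, Dusp7 by 1.80-fold (adjusted p = 0.00932), and 1 lower, Dusp9 (adjusted p = 0.0052). Dusp9 passed the filter on dim signal only through the plasmid groups, so its calls are not independent of that filter. With median centring the calls in this list were 0 for siRNA against the negative control (10.9% of all genes called) and 7 for siRNA against the plasmid groups (23.1% of all genes).

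Upstream of the members, 15 of 22 FGF ligand genes were tested. In the knockdown comparison 3 were called higher and 1 lower, beside 12.4% of all genes called. The shares of all genes were 21.8% for the plasmid groups against the negative control and 18.8% for siRNA against the plasmid groups. Fgf5 read -3.67 on average on the siRNA arrays and was well above background on all 3 of them and on 0 of 9 others, at least 8.12-fold higher than in the negative control (limma adjusted p = 0.00167) and at least 7.76-fold higher than in the pcDNA3.1 group. Fgf5 passed the filter on dim signal only through the siRNA group, so its calls are not independent of that filter. Fgf1 rose 4.10-fold (adjusted p = 0.00879), while its other probe differed by -0.14 (adjusted p = 0.792). Fgf2 was above background on the negative control arrays alone, at least 1.13-fold lower on the siRNA arrays (adjusted p = 0.0298). Of the plasmid groups against the negative control, 0 ligands were higher and 3 lower: Fgf9, Fgf21 and Fgf2 (adjusted p = 0.0208, 0.00423 and 0.0292). Fgf9 was at least 3.05-fold lower in the pcDNA3.1 group. Fgf21, a metabolic hormone of the family, averaged -3.09 in the negative control, -5.73 in the pcDNA3.1 group and -4.46 in the pcDNA3.1-MEG3 group. It was above background on 2 of 3 pcDNA3.1 arrays and at least 6.25-fold lower there. Its fitted fall over both plasmid groups was 4.02-fold. In siRNA against plasmid groups 3 were higher, among them Fgf21, which averaged -1.94 on the siRNA arrays. Its fitted difference from both plasmid groups was 8.93-fold (adjusted p = 0.000865), and at least 13.9-fold from the pcDNA3.1 group alone. There 1 was lower, Fgf17, above background on 1 of 3 siRNA arrays (adjusted p = 0.04). Fgf2 and Fgf9 passed the filter only through the negative control, so their calls are likewise not independent of it.

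Of 14 FGF receptor and co-receptor genes 12 were tested. In the knockdown comparison 0 were called by limma (4 had an unadjusted p under 0.05), beside 12.4% of all genes. The shares of all genes were 21.8% for the plasmid groups against the negative control and 18.8% for siRNA against the plasmid groups. In the plasmid groups against the negative control 1 was higher and 3 lower. Klb, the co-receptor for endocrine FGFs, was above background on all plasmid arrays and 0 of 3 negative control arrays (limma adjusted p = 0.0311). It was at least 4.67-fold higher in the pcDNA3.1 group and at least 3.18-fold higher in the pcDNA3.1-MEG3 group. Klb passed the filter on dim signal only through the plasmid groups, so its call is not independent of that filter. Gpc1, a heparan sulfate proteoglycan that binds FGF, fell 1.59-fold (adjusted p = 0.0194) and was 1.44-fold higher on the siRNA arrays than in the plasmid groups (adjusted p = 0.0406). Fgfr3 fell 3.44-fold (adjusted p = 0.0414), with its other probe at 0.32 (adjusted p = 0.611). With median centring 2 of this list were called in the knockdown comparison, 7 in the plasmid groups against the negative control and 3 in siRNA against the plasmid groups, beside 10.9%, 28% and 23.1% of all genes.

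Of 25 genes of the Ras and ERK cascade, all tested, 3 were higher and 1 lower in the knockdown comparison, beside 12.4% of all genes. The shares of all genes were 21.8% for the plasmid groups against the negative control and 18.8% for siRNA against the plasmid groups. Frs3, an adaptor of FGF receptors, was above background on all negative control arrays, on 1 of 3 siRNA arrays and on 0 of 6 plasmid arrays. It was at least 4.75-fold lower on the siRNA arrays (limma adjusted p = 0.025), and at least 6.94-fold and 8.18-fold lower in the pcDNA3.1 and pcDNA3.1-MEG3 groups (adjusted p = 0.00168). Frs3 passed the filter on dim signal only through the negative control, so these calls are not independent of that filter. Rps6ka3, an ERK-activated kinase, rose 1.85-fold on the siRNA arrays (adjusted p = 0.0156). In the plasmid groups 3 genes were higher, among them Map2k1, which encodes MEK1, by 1.71-fold (adjusted p = 0.0267), and Rps6ka1 by 2.31-fold (adjusted p = 0.0214), and 3 were lower. In siRNA against the plasmid groups 3 were higher and 1 lower, and 10 were called with median centring, which called 23.1% of all genes.

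Of 14 other ERK-responsive genes, all tested, 5 were higher and 0 lower in the knockdown comparison, 2 higher and 2 lower in the plasmid groups against the negative control, and 7 higher and 1 lower in siRNA against the plasmid groups. Of all genes 12.4%, 21.8% and 18.8% were called in the same order. The list's medians were 0.41, -0.14 and 0.39, beside 0.06, 0.18 and -0.11 for all genes. With median centring 2 were called in the knockdown comparison, beside 10.9% of all genes. On the siRNA arrays against the negative control Fos rose 3.46-fold (adjusted p = 0.00245), Phlda1 2.50-fold (adjusted p = 0.00486) and Lif, a cytokine gene, 2.43-fold (adjusted p = 0.0383). Against the plasmid groups Hbegf, an EGF receptor ligand, was 3.50-fold higher (adjusted p = 0.00067) and Egr1 2.94-fold (adjusted p = 0.00192). In the plasmid groups against the negative control Hbegf fell 2.53-fold (adjusted p = 0.00205) and Fosl1 rose 2.28-fold (adjusted p = 0.0172). Of 7 other receptor tyrosine kinase genes tested, 0 were called in the knockdown comparison by limma (1 had an unadjusted p under 0.05), and Pdgfrb was 1.94-fold lower in the plasmid groups (adjusted p = 0.0204). Between the plasmid groups 0 genes of these 6 lists were called, beside 0.00815% of all genes. An unadjusted limma p under 0.05 there was held by 4 of 15 FGF ligand genes and 8 of 25 cascade genes. It was also held by 2 of 15 feedback genes, 2 of 14 ERK-responsive genes and 2 of 7 receptor tyrosine kinase genes. Of the 12 FGF receptor and co-receptor genes 0 held it, beside 2496 of all 24543 genes.

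**Figure D4:**
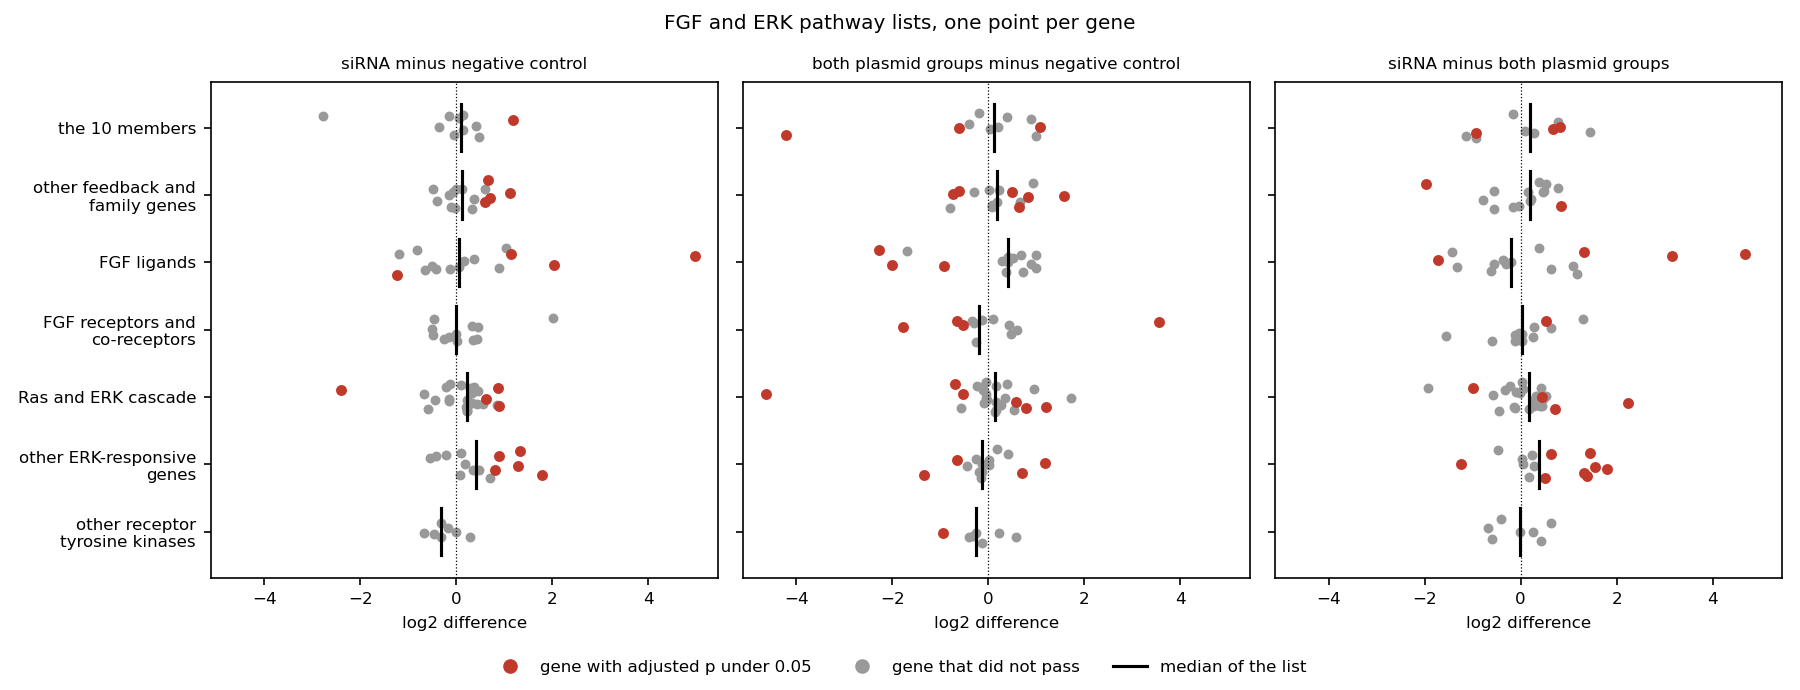
Log2 difference of each tested gene (points, red with adjusted p under 0.05) and the median (black bar) for the 10 members and 6 lists of the FGF and ERK pathway in 3 comparisons. The other ERK-responsive genes have 5 red points, all above 0, for siRNA minus negative control; differences of genes dim in one group are drawn as fitted and are not sizes.

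The genes whose signals were most like those of a member across the 8 samples were taken by Pearson's correlation, as a description, since the samples share groups and slides. The closest for Dusp4 were Cth and B3galnt2 (both 0.996), for Dusp6 Usp1 (0.996) and Angpt2 (0.989), for Spry1 Ltc4s (0.996) and Galns (0.995), for Spred1 Cap2 and Nav2 (both 0.988), and for Spry4 Zkscan7 and Loxl2 (both 0.961). For Spry2 they were Fam122c and Olfr497, for Spred2 Rspry1 and Rmnd5a, for Etv4 Hsf2bp and Tmem38a, for Etv5 Chp1 and Gucd1, and for the brighter Fgfr4 probe Rbbp8nl and Olfr282. These correlations lay between 0.924 for Rmnd5a and 0.999 for Rbbp8nl, and no member was among the 2 genes closest to another.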

How the data were processed

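Spot intensity on a linear scale was extracted with Agilent Feature Extraction 11.0.1.1, per the file headers, with background subtracted and no scaling between arrays. Other columns hold 0 or 1 flags, per the file headers. The authors also deposited a series table of linear intensity values, with its scaling not stated in the sources used here, which served as an alternative. Of 44397 spots per array 1377 controls were left out, 0 were saturated, and outlier spots were dropped. Accessions without versions were matched to RefSeq symbols (27234 of 39429 probes). That table is of GRCm38.p6 and the array headers name another build, so it served for names, and coordinates are printed for RefSeq promoters only.

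The log2 of the processed signal minus each array's 75th percentile was used. A probe was kept (29611 were) if 1 group or more had it well above background on all arrays, and the brightest probe stood for a gene (24543 genes). Replicates 1 and 3 of each group were averaged, and a group-means model of the 8 samples was fitted in limma 3.58.1 (R 4.3.3, with the jsonlite package, version 2.0.0, and the data.table package, version 1.17.8; two-sided, 4 residual degrees of freedom and 1.9 prior, Benjamini-Hochberg threshold 0.05). The fit was tested on simulated data. A dim group got a bound: on each array, its own signal or the dimmest signal flagged well above background, whichever was higher, also where 1 or 2 of its 3 arrays were above background. Members and gene lists were chosen with earlier results of these data known. Named were all members, up to 3 called genes per list and comparison with the largest differences, and the 2 genes most like each member. The number of arrays limits the precision. Alternatives covered sample counting, background, scaling, filter, probe choice, block, groups fitted and single samples left out. 1 named-gene result is not reported here.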

Additional observations from a re-analysis of the deposited data

How the results depend on the processing

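Across the alternatives run, none of the called differences of the members changed sign, and the 0 calls between the plasmid groups held throughout. On the same side of the threshold as in the main setting were 145 of 158 values for siRNA minus negative control, 163 of 178 for plasmids minus negative control, 152 of 178 for siRNA minus plasmids and 158 of 158 between the plasmid groups. Differences that were not called did change sign, in 16, 7, 9 and 4 of these values in the same order, for Spry1, Spry2, Spred2, Dusp4, Dusp6, Etv4, Etv5 and Fgfr4, each at an adjusted p of 0.117 or more. In the counts of members that follow, the share of all genes called stands in brackets. For siRNA minus negative control (1 member called) the count was 4 with 12 arrays as 12 samples (40.1%) and 2 with subtracted median signals plus 50 (8.26%). It was 0 with each plasmid group as 1 sample (0.636%), with median centring (10.9%), with no filter on dim probes (6.08%), with the replicate block (7.48%) and with only the groups compared (0.636%). Leaving out a single sample left 1 sample in its group, so no counts are given for those fits. For both plasmid groups minus negative control (3 called) it was 5 with 12 arrays as 12 samples (53%), 1 with each plasmid group as 1 sample (0.546%), and 5 with only the groups compared (34.1%). For siRNA minus both plasmid groups (3 called) it was 7 with 12 arrays as 12 samples (52.1%), 0 with each plasmid group as 1 sample (0.754%), 5 with median centring (23.1%) and 5 with only probes well above background on all 12 arrays (24.6%). The causes were not tested.

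Over all genes, siRNA minus negative control called 3046 genes, 9854 with 12 arrays, 156 with only the groups compared, 1837 with the replicate block and 1970 with no filter. The plasmid groups against the negative control called 5360, 13019 with 12 arrays and 134 with each plasmid group as 1 sample. siRNA against the plasmid groups called 4603, 12781 and 185 in the same order. The plasmid groups differed in 2 genes, 3004 with 12 arrays and 1964 in a fit of those groups alone. Replicate numbers did not pair samples: same-numbered arrays correlated at -0.0922 to 0.0508, and in 4 of 18 pairs each array correlated best with its own number. With the replicate block 0 members were called for siRNA minus negative control, beside 7.48% of all genes. In both comparisons with the plasmid groups 3 were called. The shares of all genes were 16.6% for the plasmid groups minus negative control and 13.8% for siRNA minus the plasmid groups. Normexp could not be fitted on 3 arrays and was not run. The subtracted median signals plus 50 took its place, chosen after seeing the data. Signal over background limits Spry4, Spry2 and the dim list genes to bounds.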
